A study of Mus musculus with 2 samples.

Results

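Prostaglandins are short-lived lipid signals that cells make from arachidonic acid. The genes described here encode 7 proteins that make, sense or break down these lipids: the cyclooxygenases Ptgs1 (COX-1) and Ptgs2 (COX-2), the terminal synthases Ptges and Hpgds, the prostaglandin E2 receptors Ptger2 (EP2) and Ptger4 (EP4), and the breakdown enzyme Hpgd (15-PGDH). They were taken by symbol from the list of measured genes, where each symbol occurred once, and make up 7 of 32285 features.

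The study profiled subcutaneous tumors of MC38, a mouse colon carcinoma line, by droplet single-cell RNA sequencing of 3' transcript ends. Mice received 3 intratumoral injections, 3 days apart, of MSA-2, a small-molecule agonist of the innate immune receptor STING, or of vehicle, saline with DMSO. The control library is labelled untreated, and the study design gives its mice the vehicle. Tumors of 3 mice were pooled for each library, so each condition is 1 library. No spread between tumors can be measured, and every difference below is a difference between these 2 libraries with no replicate check.

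The untreated library held 14386 barcodes with 198135335 unique molecular identifiers (UMIs, each counting 1 captured mRNA molecule), and the MSA-2 library 14617 barcodes with 204387165 UMIs. The libraries shared 53 barcode sequences. After filters on cell quality and doublets, 13305 untreated and 13393 MSA-2 cells remained, with medians of 8289 and 9271 UMIs per cell. Levels are given as CPM: all UMIs in a cell class were pooled, and the gene's number was scaled to a total of 1000000. Ranges in parentheses are exact 95% intervals that cover counting error only. A log2 ratio compares the MSA-2 with the untreated library, so a positive value means a higher level with MSA-2. Where a class held 0 UMIs, the level of 3 UMIs is given as the limit. Where classes are ordered by level, only neighbours in the order were compared. Classes further apart can therefore differ where no neighbours do, above all where a class between them holds few UMIs.

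Arachidonic acid is released from membrane lipids by phospholipases and turned by either cyclooxygenase into the unstable intermediate prostaglandin H2. Ptgs1 is made steadily in many tissues, whereas Ptgs2 is induced by cytokines, growth factors and injury. Ptges then forms prostaglandin E2, which signals through EP2 and EP4 to raise cyclic AMP and is known in tumors for restraining T cells, NK cells and dendritic cells, while Hpgds forms prostaglandin D2 and Hpgd inactivates prostaglandin E2.

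Cells were assigned to classes by scores of marker genes. MC38 tumor cells numbered 6427 without and 6920 with MSA-2, with median depths of 20080 and 19760 UMIs. Macrophages numbered 3471 and 996, Ly6c2 monocytes 409 and 701, and neutrophils 31 and 2555. There were 196 and 557 fibroblasts, 990 and 113 T cells, 206 and 99 NK cells, and 60 and 74 endothelial cells. Dendritic cells (106) and pericytes (22) were described in the untreated library only, since the MSA-2 library held 10 and 13, under the minimum of 20 cells. Another 1347 and 1302 cells passed no gate, and 24 and 36 passed gates of more than 1 lineage.

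The tumor class carried its label through a few genes. Its gate rested on Gng11 (1342 and 2123 CPM), Anxa1 (1018 and 1179 CPM) and Ccn1 (693 and 326 CPM), while the keratins of the colon epithelium were near 0: Krt18 had 0 and 2 UMIs over all cells of the class, and Krt8 had 22 and 41. Mesenchymal transcripts were present in it, with Dcn at 444 CPM untreated and 1507 CPM with MSA-2. The gates are ranges on a score and not separate populations: 1152 untreated and 1324 MSA-2 tumor cells lay within 0.05 of the gate, as did 145 and 100 macrophages, 65 and 142 monocytes, 14 and 79 fibroblasts, 7 and 103 neutrophils, 108 and 26 T cells, 23 and 5 NK cells, and 2 and 3 endothelial cells. Of the 106 untreated dendritic cells, 31 lay that near to it.

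The content of some classes also differed between the libraries. In macrophages, the median over cells of the summed macrophage markers was 391 per 10000 UMIs untreated and 282 with MSA-2, that of the 9 monocyte markers was 6.71 and 17.1, and that of the 11 neutrophil markers was 0 and 7.09. In Ly6c2 monocytes the macrophage markers had medians of 61.5 and 14.7, and the neutrophil markers 4.47 and 18.4. In fibroblasts the fibroblast markers had medians of 479.7 and 275, the monocyte markers 35.7 and 54.6, and the neutrophil markers 0 and 4.22. Summed over the class, the 11 neutrophil markers were at 599.7 CPM untreated and 2996 CPM with MSA-2 in monocytes, and at 37.7 and 635 CPM in fibroblasts. Their most abundant gene with MSA-2 was S100a8 in monocytes and S100a9 in fibroblasts, and Retnlg, Cxcr2 and Ly6g had 0 UMIs in both classes of the untreated library. The same markers were higher with MSA-2 in the classes that should hold few of them. Their summed level was 8.50 CPM untreated and 482 CPM with MSA-2 in tumor cells, with medians over cells of 0 and 4.05 per 10000, and 8.67 and 566 CPM in endothelial cells. T cells had 51.3 and 494 CPM, and NK cells 8.51 and 810.1 CPM, with S100a9 the most abundant in all 4 classes with MSA-2. The summed macrophage markers, led by Apoe, were lower with MSA-2 in these classes, at 728 and 207 CPM in tumor cells, 772 and 183 CPM in endothelial cells, 1011 and 240.0 CPM in T cells, and 862 and 214 CPM in NK cells. In neutrophils the neutrophil markers had medians of 284 and 949, and the macrophage markers 14.3 and 3.63. The part of these shifts in the results below was not tested.

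The genes differed in which cell class held most of their UMIs. Over both libraries together, tumor cells held the most UMIs of Ptgs2 (74.9%) and Ptges (88.0%). Macrophages held the most of Ptgs1 (61.6%), Hpgds (80.5%), Ptger4 (58.4%) and Ptger2 (36.9%), and fibroblasts held 63.3% of the UMIs of Hpgd. For 2 genes the leading class differed between the libraries. With MSA-2, fibroblasts held 31.1% of Ptgs1, tumor cells 25.5% and macrophages 22.4%, and in the untreated library macrophages held 42.1% of Hpgd and fibroblasts 25.2%. Across all cells, Ptges and Hpgd were at least 2-fold higher in the MSA-2 library, 2 of 7 genes, where 2.98% of 19504 genes were. Ptgs1, Ptger4 and Hpgds were at least 2-fold lower, 3 of 7, where 2.94% of genes were. These counts use levels with 1 CPM added and genes with at least 20 UMIs. Values over all cells join the change within classes to the change in class sizes, and macrophages made up 26.1% of untreated and 7.44% of MSA-2 cells.

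**Figure D1:**
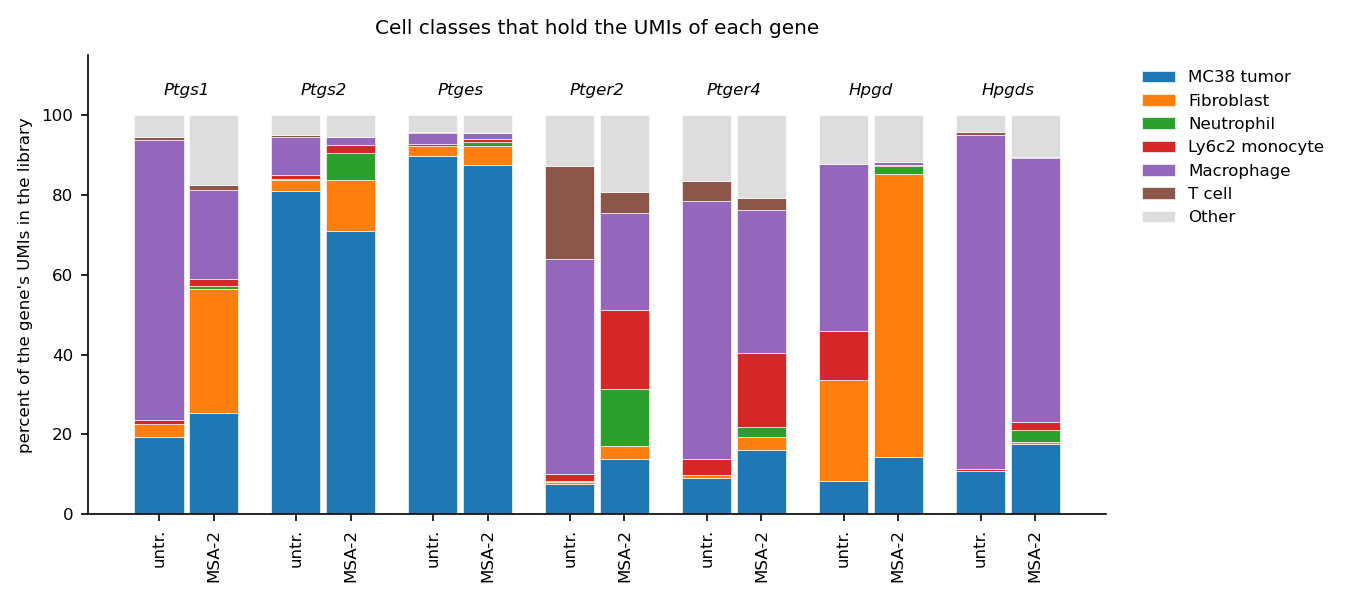
Stacked bars give the percent of each gene's UMIs in a library (vertical axis, 0 to 100) that fell in each cell class, with 1 bar for the untreated (untr.) and 1 for the MSA-2 library per gene. Tumor cells hold most of Ptgs2 and Ptges in both libraries, and the macrophage share of Ptgs1 is 70.1% untreated and 22.4% with MSA-2.

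**Figure D2:**
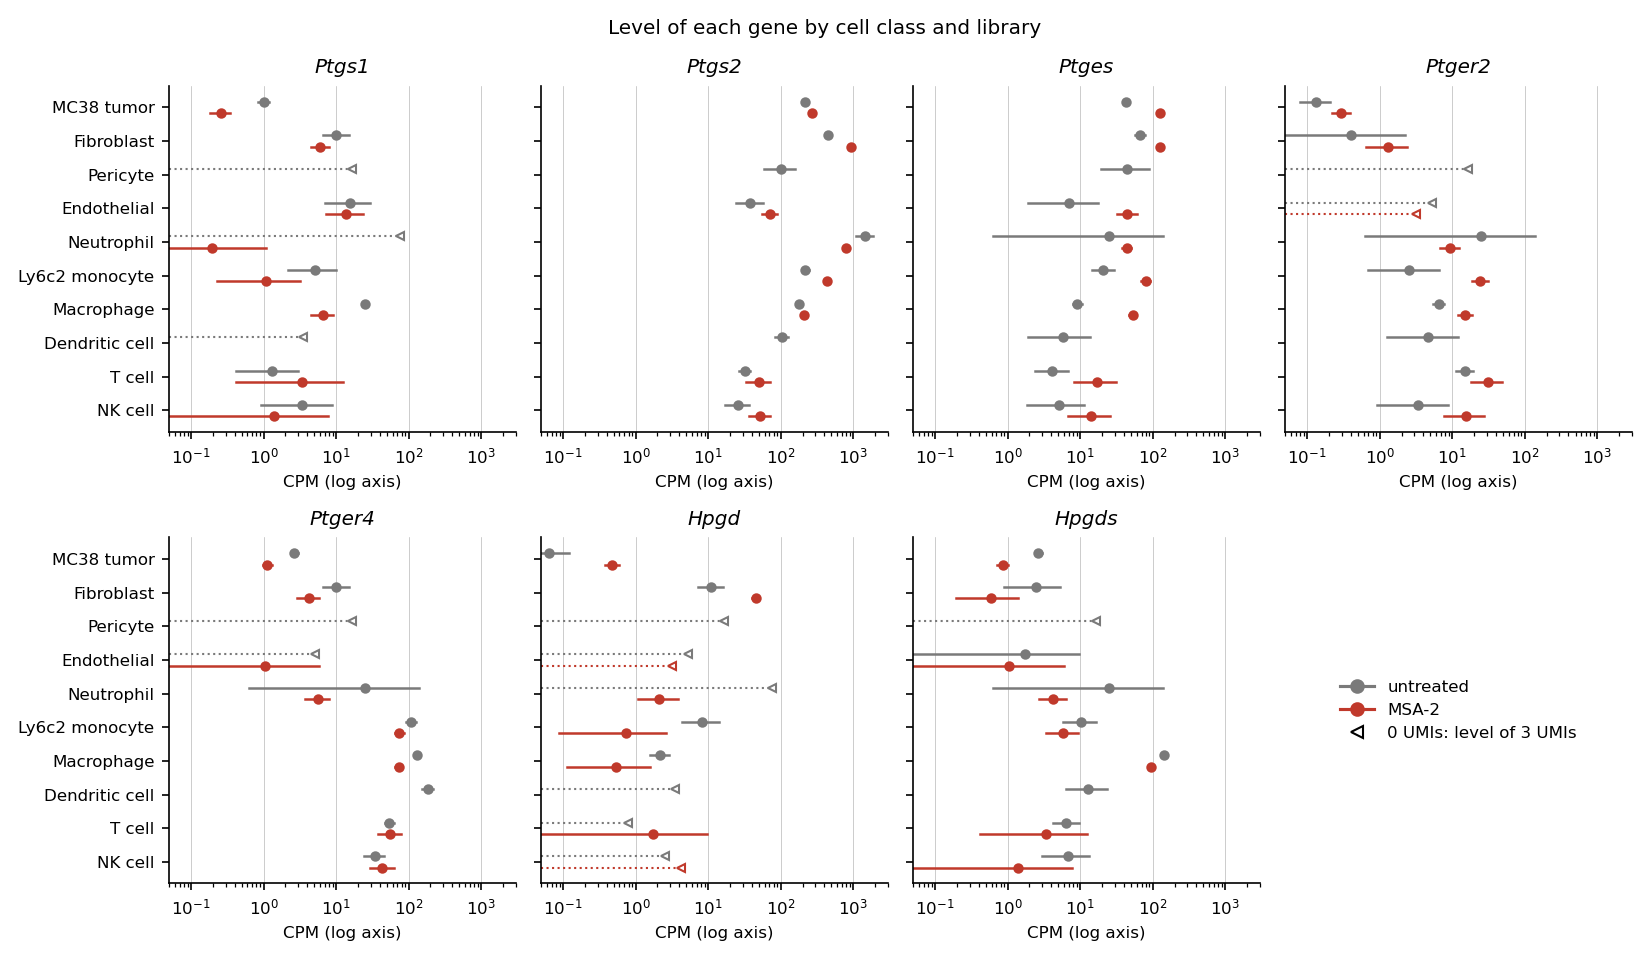
Points give the level of each gene (CPM, log axis) in each cell class with at least 20 cells, grey for the untreated and red for the MSA-2 library; lines are Poisson 95% intervals, and an open triangle with a dotted line marks 0 UMIs, placed at the level of 3 UMIs. Ptgs2 lies above 20 CPM in every class shown, whereas Hpgds stands apart in macrophages.

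**Figure D3:**
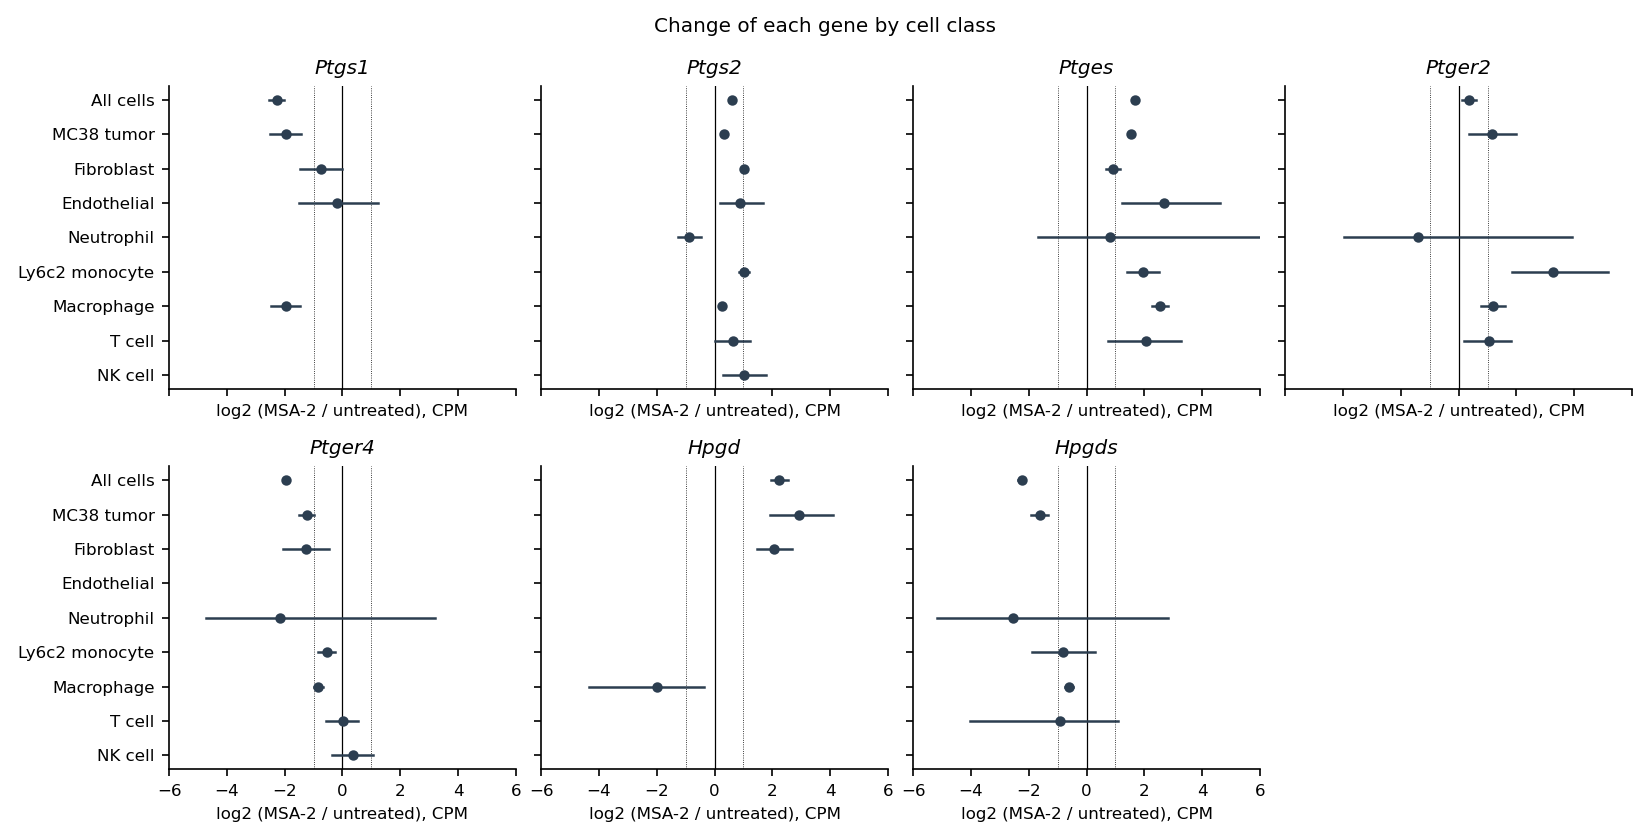
Points give the log2 ratio of the MSA-2 to the untreated library with its conditional binomial 95% interval, for classes with at least 20 UMIs of the gene in both libraries together; dotted lines mark a 2-fold change and intervals are drawn to the axis ends at 6. Ptges lies right of 0 in every class drawn, and Hpgds in macrophages and tumor cells lies left of it.

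Ptgs1, the cyclooxygenase made steadily in many tissues, was mainly a macrophage transcript in the untreated tumors and was lower in macrophages after MSA-2. Its gene (ENSMUSG00000047250) lies at chr2:36230426-36252272 on the plus strand of mm10. The macrophage level was 25.2 CPM (23.1 to 27.5) in the untreated library and 6.55 CPM (4.59 to 9.06) in the MSA-2 library, a log2 ratio of -1.94 (-2.47 to -1.46). Endothelial cells, in which the enzyme feeds prostacyclin synthesis, did not show that difference beyond counting error, with 15.6 CPM (7.14 to 29.6) in the untreated library and 13.8 CPM (7.33 to 23.5) in the MSA-2 library, a log2 ratio of -0.18 (-1.52 to 1.22). Fibroblasts had 10.1 CPM (6.55 to 14.9) in the untreated library and 5.99 CPM (4.45 to 7.90) in the MSA-2 library, a log2 ratio of -0.76 (-1.48 to -0.0027), an interval that ends at the edge of 0. Ly6c2 monocytes had 8 and 3 UMIs, a log2 ratio of -2.22 (-4.76 to -0.16).

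In the untreated library the order ran from macrophages through endothelial cells, fibroblasts, Ly6c2 monocytes, NK cells and T cells (1.29 CPM) to tumor cells (1.01 CPM), and no neighbours in it differed beyond counting error. Dendritic cells had 0 UMIs, which allows up to 3.53 CPM. With MSA-2, endothelial cells ranked above macrophages by a log2 ratio of 1.07 (0.03 to 2.02), and no neighbours further down differed. The counts are small, with 520 and 36 UMIs in macrophages.

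The share of macrophages with a Ptgs1 UMI was 12.7% untreated and 3.31% with MSA-2 at median depths of 5679 and 5104.5 UMIs. With every cell thinned to 1000 UMIs it was 2.42% (1.93 to 2.99) and 0.808% (0.349 to 1.59). T cells, used here as a class that should hold little of the gene, had a UMI in 0 of 987 untreated cells at that depth, which allows up to 0.304%, at a median depth before thinning of 3399 UMIs. In tumor cells the level was 3.99% (3.29 to 4.81) of the macrophage level untreated and 3.95% (2.46 to 6.36) with MSA-2. Those percentages stand beside 1.89% and 0.652% for C1qa, 1.82% and 0.725% for C1qb, and 1.48% and 0.545% for C1qc, complement genes that macrophages make, and whether free RNA supplied the tumor-cell UMIs was not tested.

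Ptgs2, the inducible cyclooxygenase, was abundant in tumor cells, fibroblasts and neutrophils and was higher with MSA-2 in most classes. Its level was about 2-fold higher in fibroblasts and in Ly6c2 monocytes, while the few neutrophils of the untreated library had a higher level than the many of the MSA-2 library. The gene (ENSMUSG00000032487) lies at chr1:150100031-150108227 on the plus strand. Over all cells its level was 206 CPM (204 to 208) in the untreated library and 313 CPM (311 to 316) in the MSA-2 library, a log2 ratio of 0.61 (0.59 to 0.62).

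Tumor cells had 214 CPM (212 to 217) in the untreated library and 269 CPM (267 to 272) in the MSA-2 library, a log2 ratio of 0.33 (0.31 to 0.35). Fibroblasts had 449 CPM (423 to 476) in the untreated library and 921 CPM (900.3 to 942) in the MSA-2 library, a log2 ratio of 1.04 (0.95 to 1.13). Both classes moved the same way, and the fibroblast interval lies wholly above that of tumor cells. Ly6c2 monocytes, the circulating precursors of many tumor macrophages, had 219.6 CPM (197 to 244) in the untreated library and 441 CPM (416 to 466) in the MSA-2 library, a log2 ratio of 1.01 (0.83 to 1.18). The part of the higher neutrophil-marker content of MSA-2 tumor cells, fibroblasts and monocytes in these ratios was not tested. Macrophages had 176 CPM (171 to 182) in the untreated library and 213 CPM (201 to 225) in the MSA-2 library, a log2 ratio of 0.27 (0.17 to 0.36). Levels were lower in endothelial and lymphoid cells than in these classes, and higher with MSA-2. Endothelial cells had 38.2 CPM (23.9 to 57.8) in the untreated library and 71.0 CPM (55.0 to 90.1) in the MSA-2 library, a log2 ratio of 0.89 (0.18 to 1.66). NK cells had 25.5 CPM (17.2 to 36.5) in the untreated library and 52.0 CPM (36.6 to 71.7) in the MSA-2 library, a log2 ratio of 1.03 (0.29 to 1.77). T cells had 31.8 CPM (26.5 to 38.0) in the untreated library and 49.7 CPM (33.3 to 71.4) in the MSA-2 library, a log2 ratio of 0.64 (0.01 to 1.24).

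Neutrophils, short-lived phagocytes that were rare in the untreated library, had 1448 CPM (1099 to 1871) in the untreated library and 784 CPM (760.1 to 809) in the MSA-2 library, a log2 ratio of -0.88 (-1.26 to -0.48). The part in this of the lower neutrophil-marker and higher macrophage-marker content of the untreated neutrophils, given above, was not tested. The untreated value rests on 58 UMIs in 31 cells, of which the top 10% of cells held 63.8%, and a single cell held 19. The MSA-2 value rests on 4035 UMIs, of which the top 10% of cells held 42.6%. Neutrophils carried 0.154% of the library's Ptgs2 UMIs in untreated tumors and 6.71% with MSA-2, and fibroblasts 2.94% and 12.8%.

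In the untreated library neutrophils ranked first, followed by fibroblasts, Ly6c2 monocytes, tumor cells, macrophages, dendritic cells (103 CPM), pericytes (101 CPM), endothelial cells, T cells and NK cells. Monocytes and tumor cells did not differ beyond counting error, nor did dendritic cells and pericytes, nor the last 3 classes. With MSA-2 the order was fibroblasts, neutrophils, monocytes, tumor cells and macrophages, each differing from the next, and then endothelial, NK and T cells, whose neighbours did not differ.

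The median tumor cell had 121 CPM of Ptgs2 untreated and 167 CPM with MSA-2, and the top 10% of cells held 42.9% and 40.9% of the UMIs. Unthinned, 78.5% and 85.6% of tumor cells had a UMI, against 11.2% and 20.4% of T cells, whose median depths were 3399 and 4102 UMIs. At 1000 UMIs per cell the shares were 19.9% (18.9 to 20.9) and 23.6% (22.6 to 24.6) in tumor cells, 28.7% (22.5 to 35.6) and 48.4% (44.1 to 52.6) in fibroblasts, and 3.24% (2.23 to 4.55) and 3.57% (0.982 to 8.89) in T cells.

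Sub-gates were set on marker pairs after the values had been seen, and a cell may pass more than 1 of them. Tumor cells with Aspn or Enpp2 had 352 CPM (346 to 357) of Ptgs2 untreated and 479 CPM (467 to 491) with MSA-2. Those with the cycling genes Top2a or Mki67 had 139 CPM (136 to 141) and 219 CPM (217 to 222). The former numbered 1936 untreated and 520 with MSA-2, and the latter 2962 and 4350. Their log2 ratios were 0.45 (0.40 to 0.49) and 0.66 (0.63 to 0.69), where that of all tumor cells was 0.33. The part of the differing cell numbers in the class ratio was not tested. The higher level of the whole macrophage class was not seen in 2 of its sub-gates. Macrophages with Folr2 or Lyve1 had 207 CPM (169.6 to 249) untreated and 163 CPM (142 to 185) with MSA-2, a log2 ratio of -0.34 (-0.68 to -0.0021), and those with Top2a or Mki67 had 185 CPM (172 to 199.7) and 212 CPM (178 to 249), a log2 ratio of 0.19 (-0.08 to 0.45).

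Ptges, the inducible synthase that forms prostaglandin E2, had a higher level with MSA-2 in every class with at least 20 UMIs. In neutrophils that difference was not beyond counting error. The tumor-cell level of Ptges was nearly 3-fold that of the untreated library. The gene (ENSMUSG00000050737) lies at chr2:30889471-30929863 on the minus strand. Tumor cells had 42.3 CPM (41.2 to 43.4) in the untreated library and 124 CPM (122 to 126) in the MSA-2 library, a log2 ratio of 1.55 (1.51 to 1.59), and the part in it of the marker content given above was not tested. With 1 CPM added to each level, Ptges alone of the 7 genes was at least 2-fold higher in tumor cells, 1 of 7 where 2.71% of 18108 genes were, and 0 of 7 were at least 2-fold lower, where 1.62% were. Without the added CPM, Hpgd and Ptger2 were also past 2-fold upward there and Ptgs1, Ptger4 and Hpgds downward, from tumor-cell levels of at most 2.66 CPM.

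Fibroblasts had 67.6 CPM (57.8 to 78.7) in the untreated library and 127 CPM (119 to 135) in the MSA-2 library, a log2 ratio of 0.90 (0.67 to 1.15). Ly6c2 monocytes had 20.9 CPM (14.4 to 29.4) in the untreated library and 80.2 CPM (69.9 to 91.5) in the MSA-2 library, a log2 ratio of 1.94 (1.40 to 2.51). The ratio was larger in macrophages, with 9.16 CPM (7.90 to 10.6) in the untreated library and 52.9 CPM (47.0 to 59.4) in the MSA-2 library, a log2 ratio of 2.53 (2.26 to 2.80). In macrophages and monocytes the whole interval lay beyond a 2-fold change. Endothelial cells had 6.94 CPM untreated and 44.5 CPM with MSA-2, a log2 ratio of 2.68 (1.22 to 4.62). NK cells had 5.11 and 14.1 CPM, a log2 ratio of 1.46 (-0.14 to 3.20), an interval that includes 0. Neutrophils had 43.5 CPM (38.0 to 49.6) with MSA-2 and a single UMI without it, a log2 ratio of 0.80 (-1.69 to 6.11), which also includes 0.

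In the untreated library fibroblasts, pericytes (44.7 CPM) and tumor cells led, and the only neighbours that differed were monocytes above macrophages. With MSA-2 fibroblasts and tumor cells did not differ from each other, both stood above monocytes, and monocytes stood above macrophages. Macrophages, endothelial cells and neutrophils did not differ from one to the next, and T cells, at 17.1 CPM (8.22 to 31.5), and NK cells came last. Tumor cells held 89.8% of the gene's UMIs in the untreated library and 87.5% in the MSA-2 library.

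The share of tumor cells with a Ptges UMI was 50.4% and 72.8%, and 3.90% (3.43 to 4.40) and 10.6% (9.85 to 11.3) at 1000 UMIs per cell. T cells at that depth had 0.203% (0.0245 to 0.730) untreated and 0 of 112 cells with MSA-2, which allows up to 2.68%. In the median tumor cell Ptges was at 17.2 CPM untreated and 80.9 CPM with MSA-2, so the difference was spread over the class and did not rest on a few cells.

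Because tumor cells dominate the RNA of both libraries, the level of Ptgs2 and Ptges in immune classes was set beside that of Gng11, a tumor-class marker, and Dcn, both chosen for this after values were seen. Neither is particular to tumor cells: as a percent of the tumor-cell level, Gng11 was at 111% and 74.7% in endothelial cells and Dcn at 756% and 255% in fibroblasts. As a percent of the tumor-cell level, Gng11 was at 14.1% and 15.9% in macrophages, and Dcn at 10.3% and 13.4%. Ptges in macrophages was at 21.7% (18.6 to 25.0) untreated and 42.6% (37.9 to 47.9) with MSA-2, above both genes in each library. In Ly6c2 monocytes it was at 49.5% (34.1 to 69.6) and 64.6% (56.3 to 73.8), where Gng11 was at 13.6% and 15.6%.

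T cells were different: Ptges was at 9.79% (5.59 to 15.9) and 13.8% (6.62 to 25.4) of the tumor-cell level, where Gng11 was at 14.5% and 12.2% and Dcn at 10.8% and 11.9%. NK cells had Ptges at 12.1% and 11.3%, and Gng11 at 12.6% and 10.9%. In T and NK cells Ptges was not above Gng11 beyond counting error, and the source of its UMIs there was not tested. Ptgs2 in T cells was at 14.9% (12.4 to 17.7) and 18.5% (12.4 to 26.5). Its interval includes the Gng11 percentage in the untreated library and starts just above it in the MSA-2 library. In NK cells Ptgs2 was at 11.9% (8.05 to 17.0) untreated and 19.3% (13.6 to 26.6) with MSA-2. The MSA-2 interval lies above that of Gng11 there (9.33 to 12.7). In macrophages Ptgs2 was at 82.4% and 78.9%. In neutrophils with MSA-2, Gng11 was at 22.3%, Dcn at 21.7% and Ptges at 35.1% (30.6 to 40.0).

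**Figure D4:**
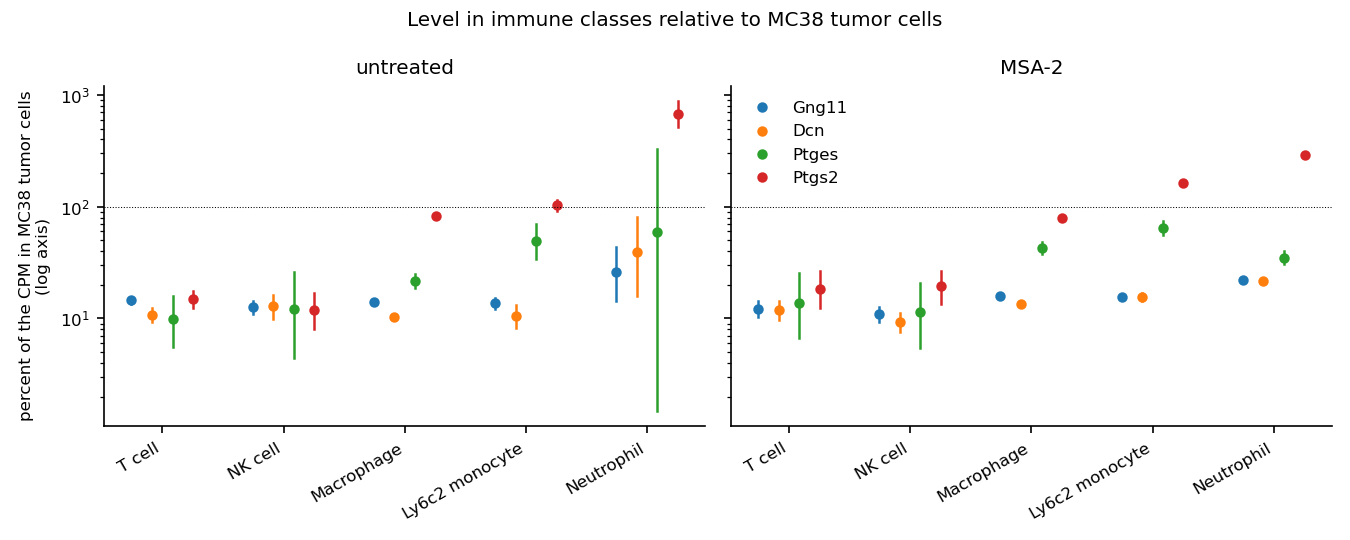
Points give the level of Gng11, Dcn, Ptges and Ptgs2 in immune classes as a percent of the CPM in MC38 tumor cells of the same library (log axis), with 95% intervals as lines and a dotted line at 100%; the left panel is the untreated and the right panel the MSA-2 library. The genes lie nearer to each other in T and NK cells than in neutrophils, and in macrophages and monocytes Ptges and Ptgs2 lie above Gng11 and Dcn.

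Detection of Ptgs2 and Ptges in the same cells was compared after thinning tumor cells to 10000 UMIs. In the untreated library, 32.8% (31.3 to 34.4) of cells with a Ptgs2 UMI also had a Ptges UMI, against 31.0% (28.9 to 33.2) of cells without. With MSA-2 the shares were 60.9% (59.3 to 62.3) and 54.4% (51.9 to 56.9). In fibroblasts thinned to 5000 UMIs they were 41.9% (37.2 to 46.8) and 28.4% (19.9 to 38.2) with MSA-2. The intervals of cells with and without Ptgs2 were apart in MSA-2 tumor cells and overlapped in the other comparisons, and whether the libraries differ in this respect was not tested.

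The start regions of Ptgs2 and Ptges are printed here because both genes were higher with MSA-2 in tumor cells, fibroblasts and Ly6c2 monocytes. Sequences are from RefSeq (GRCm38.p6, the assembly of mm10), which held a start region for 7 of 7 genes, and span 250 bases before to 50 after the start. The Ptgs2 region is chr1:150099781-150100080 on the plus strand and the Ptges region chr2:30903248-30903547 on the minus strand, inside the longer gene span given above. Capitals mark motif matches.
Ptgs2: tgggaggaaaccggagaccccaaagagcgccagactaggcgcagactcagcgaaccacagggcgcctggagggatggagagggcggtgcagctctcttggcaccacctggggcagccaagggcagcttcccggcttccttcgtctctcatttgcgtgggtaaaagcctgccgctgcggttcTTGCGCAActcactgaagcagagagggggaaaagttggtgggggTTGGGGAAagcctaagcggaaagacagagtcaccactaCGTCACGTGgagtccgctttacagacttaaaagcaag
Ptges: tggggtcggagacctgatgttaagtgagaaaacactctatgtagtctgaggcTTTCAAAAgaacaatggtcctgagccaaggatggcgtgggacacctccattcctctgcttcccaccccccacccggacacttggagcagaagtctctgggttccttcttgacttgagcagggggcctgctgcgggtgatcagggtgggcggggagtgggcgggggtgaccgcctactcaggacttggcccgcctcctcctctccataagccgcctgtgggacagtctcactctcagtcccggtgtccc

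Both strands were searched for 7 short motifs. In Ptgs2 the cyclic AMP response element core TGACG matched at bases 264 to 268 of the window, as CGTCA on the printed strand, and 21.02% of 27025 promoters held this core. The E-box CACGTG matched at bases 267 to 272 and overlaps it, and 7.24% of promoters held an E-box. The C/EBP motif TTNNGNAA matched Ptgs2 at bases 182 to 189 and 226 to 233 and Ptges at bases 53 to 60, and 40.7% of promoters held it, as did 5 of the 7 genes. The kB motif GGANTTNCC (3.91% of promoters), the AP-1 motif TGANTCA (7.93%) and the interferon-response core GAAANNGAA (8.57%) matched 0 of the 7 windows, and the TATA motif TATAAA (14.2%) matched that of Hpgd. A match is a description of letters and not a site or a cause, and the lack of one says only that these letters are not in this window.

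Hpgds, the hematopoietic synthase of prostaglandin D2, was a macrophage gene in both libraries and was lower in macrophages after MSA-2. It lies at chr6:65117293-65144908 on the minus strand (ENSMUSG00000029919). Macrophages had 143 CPM (138 to 148) in the untreated library and 94.02 CPM (86.1 to 102) in the MSA-2 library, a log2 ratio of -0.60 (-0.74 to -0.47). Over all cells it was at 19.3 CPM (18.6 to 19.9) in the untreated library and 4.06 CPM (3.78 to 4.36) in the MSA-2 library, a log2 ratio of -2.24 (-2.36 to -2.13). The difference over all cells was thus larger than that within macrophages, whose number was lower in the MSA-2 library.

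Macrophages ranked first and differed from the next class in both libraries. Below them in the untreated library came dendritic cells (12.9 CPM), Ly6c2 monocytes (10.2 CPM), NK cells (6.81 CPM) and T cells (6.47 CPM), whose neighbours did not differ, and then tumor cells (2.65 CPM), below T cells beyond counting error. Neutrophils of that library had a single UMI. With MSA-2, monocytes were at 5.83 CPM (3.33 to 9.47), and no neighbours from there down to fibroblasts (0.599 CPM) differed.

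Unthinned, 47.7% of untreated and 31.7% of MSA-2 macrophages had an Hpgds UMI. At 1000 UMIs the shares were 13.02% (11.9 to 14.2) and 9.29% (7.56 to 11.3), while T cells had 1.01% (0.487 to 1.86) untreated and 0 of 112 with MSA-2. Tumor cells had a level 1.86% (1.67 to 2.07) that of macrophages untreated and 0.919% (0.755 to 1.11) with MSA-2, where the 3 C1q genes ran from 1.48% to 1.89% and from 0.545% to 0.725%. Whether free RNA supplied the Hpgds UMIs of tumor cells was not tested. Macrophages with Folr2 or Lyve1 had 144 CPM (113 to 180.3) untreated and 57.1 CPM (45.2 to 71.0) with MSA-2, a log2 ratio of -1.34 (-1.81 to -0.86). The difference was smaller in macrophages with Top2a or Mki67, with 140.1 CPM (128 to 153) and 111 CPM (87.3 to 139), a log2 ratio of -0.34 (-0.70 to 0.02), an interval that includes 0.

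Ptger4 and Ptger2 encode the receptors EP4 and EP2, which both couple to the stimulatory G protein that raises cyclic AMP. In these tumors they differed in opposite directions in myeloid cells: in macrophages and Ly6c2 monocytes Ptger4 was lower and Ptger2 higher with MSA-2. In monocytes the Ptger4 difference depended on the scaling, as given below. In T cells Ptger4 showed no difference beyond counting error, and Ptger2 was higher.

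Ptger4 (ENSMUSG00000039942, chr15:5206661-5244187, minus strand) was at 129 CPM (124 to 134) in the untreated library and 72.6 CPM (65.6 to 80.0) in the MSA-2 library in macrophages, a log2 ratio of -0.83 (-0.99 to -0.68). Ly6c2 monocytes had 109 CPM (92.9 to 126) in the untreated library and 74.3 CPM (64.5 to 85.3) in the MSA-2 library, a log2 ratio of -0.55 (-0.85 to -0.24). Neither class passed a 2-fold change, and both intervals lay below 0. Scaling by trimmed means (TMM), described below, moves every monocyte ratio up by 0.29, so the monocyte interval then includes 0. T cells had 54.4 CPM (47.3 to 62.2) in the untreated library and 54.9 CPM (37.5 to 77.4) in the MSA-2 library, a log2 ratio of 0.01 (-0.57 to 0.55), and NK cells had 34.1 CPM (24.3 to 46.4) in the untreated library and 43.6 CPM (29.6 to 61.9) in the MSA-2 library, a log2 ratio of 0.36 (-0.37 to 1.07). In both lymphoid classes the interval included 0.

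Dendritic cells had the highest Ptger4 level in the untreated library, 182 CPM (155 to 213), and stood above macrophages, which stood above monocytes, T cells and NK cells in that order, each differing from the next. Dendritic cells with Ccr7 or Fscn1, markers of the mature state, had 245 CPM (205 to 291), against 108 CPM (78.1 to 146) in those with Xcr1 or Clec9a. Those with Cd209a or Mgl2 had 175 CPM (122 to 243), an interval that overlaps both. With MSA-2 the monocytes, macrophages, T cells and NK cells did not differ from their neighbours, and NK cells stood above neutrophils, at 5.64 CPM (3.77 to 8.09). Fibroblasts had 10.1 CPM untreated and 4.19 CPM with MSA-2, a log2 ratio of -1.27 (-2.05 to -0.47), and endothelial cells 0 and 1 UMIs.

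The share of macrophages with a Ptger4 UMI was 41.7% and 24.0%, and 11.2% (10.2 to 12.3) and 7.78% (6.19 to 9.63) at 1000 UMIs. Tumor cells, used as a class that should hold little of the gene, had 0.219% (0.120 to 0.367) and 0.218% (0.122 to 0.359) at that depth, from median depths of 20080 and 19760 UMIs. Their level was 2.06% (1.85 to 2.30) of that in macrophages untreated and 1.56% (1.30 to 1.86) with MSA-2, beside the C1q percentages given above. Macrophages with Folr2 or Lyve1 had 119 CPM (91.7 to 153) untreated and 27.1 CPM (19.2 to 37.2) with MSA-2, a log2 ratio of -2.14 (-2.76 to -1.54). Those with Top2a or Mki67 had 137 CPM (125 to 149.6) and 79.9 CPM (60.1 to 104), a smaller log2 ratio of -0.78 (-1.21 to -0.37). Ptger4 overlaps Ttc33 on the other strand, and the strand setting used in counting was not given in the sources used here.

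Ptger2 (ENSMUSG00000037759, chr14:44988195-45003820, plus strand) was sparse in every class. Macrophages had 6.54 CPM (5.48 to 7.74) in the untreated library and 14.9 CPM (11.9 to 18.5) in the MSA-2 library, a log2 ratio of 1.19 (0.77 to 1.60). The monocyte level rests on few molecules. It was 2.54 CPM (0.692 to 6.50) in the untreated library and 24.4 CPM (18.9 to 31.0) in the MSA-2 library, a log2 ratio of 3.27 (1.84 to 5.18), from 4 and 67 UMIs. T cells had 15.0 CPM (11.4 to 19.4) in the untreated library and 30.9 CPM (18.3 to 48.8) in the MSA-2 library, a log2 ratio of 1.04 (0.19 to 1.82), from 58 and 18 UMIs. NK cells had 4 and 11 UMIs, a log2 ratio of 2.18 (0.43 to 4.29). All these intervals lay above 0, and that of monocytes is wide.

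Without MSA-2, T cells stood above macrophages, and no other neighbours differed. Several classes between macrophages and tumor cells in that order held few UMIs. Macrophages were at 6.54 CPM, from 135 UMIs, and tumor cells at 0.134 CPM, from 19. With MSA-2 the T cells, monocytes, NK cells and macrophages did not differ from their neighbours, and macrophages stood above neutrophils, at 9.33 CPM (6.88 to 12.4), which stood above fibroblasts (1.32 CPM) and tumor cells (0.296 CPM). Unthinned, 0.978% and 8.27% of monocytes had a UMI, and 0.247% (0.00625 to 1.37) and 2.75% (1.66 to 4.26) at 1000 UMIs, where tumor cells had 0.0313% and 0.0436%. CD8 T cells, gated on Cd8a or Cd8b1, had 14.3 CPM (9.96 to 19.9) untreated and 33.8 CPM (18.9 to 55.8) with MSA-2. Ptger2 overlaps the antisense gene Gm17173, so the same limit on strand applies.

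Hpgd, the enzyme that starts the breakdown of prostaglandin E2, had a fibroblast level about 4-fold higher with MSA-2, while monocytes and macrophages had less of it. Fibroblasts led in the MSA-2 library, and in the untreated library their level did not differ from that of monocytes. It lies at chr8:56294585-56321043 on the plus strand (ENSMUSG00000031613). Fibroblasts had 10.9 CPM (7.21 to 15.9) in the untreated library and 45.3 CPM (40.8 to 50.1) in the MSA-2 library, a log2 ratio of 2.05 (1.49 to 2.67), from 27 and 378 UMIs. Macrophages had 2.18 CPM (1.59 to 2.92) in the untreated library and 0.546 CPM (0.113 to 1.59) in the MSA-2 library, a log2 ratio of -1.999 (-4.33 to -0.36), from 45 and 3 UMIs. Ly6c2 monocytes had 13 and 2 UMIs, a log2 ratio of -3.50 (-6.69 to -1.36).

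Tumor cells had 0.0633 CPM (0.0289 to 0.120) in the untreated library and 0.479 CPM (0.377 to 0.5997) in the MSA-2 library, a log2 ratio of 2.92 (1.92 to 4.10). As a percent of the fibroblast level, Hpgd in tumor cells was at 0.579% (0.239 to 1.27) untreated and 1.06% (0.816 to 1.36) with MSA-2, where the collagen gene Col1a1 was at 0.417% and 0.912%, Col1a2 at 0.174% and 0.747%, and Col3a1 at 8.24% and 8.43%. The collagen genes thus lay both below and above Hpgd, and the source of the tumor-cell UMIs was not tested. Endothelial and NK cells had 0 UMIs in either library, and the endothelial counts allow up to 5.20 and 3.18 CPM.

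In the untreated library monocytes stood above macrophages, and macrophages stood above tumor cells. With MSA-2 fibroblasts stood above neutrophils, at 2.14 CPM (1.07 to 3.82), and no neighbours below them differed. Fibroblasts held 25.2% of the gene's UMIs in the untreated library and 70.9% in the MSA-2 library, and macrophages 42.1% and 0.563%.

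An Hpgd UMI was found in 16 of 196 untreated and 107 of 557 MSA-2 fibroblasts, at median depths of 12105.5 and 13509 UMIs, with at most 3 and 36 UMIs in a cell. The top 10% of MSA-2 fibroblasts held 84.9% of the UMIs. At 1000 UMIs per cell the shares were 1.03% (0.124 to 3.66) and 3.79% (2.36 to 5.74), against 0 of 6392 tumor cells untreated, which allows up to 0.0469%, and 0.0872% (0.0320 to 0.190) with MSA-2.

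Fibroblasts of the MSA-2 library were also split by an Hpgd UMI, after values were seen. The prostaglandin transporter Slco2a1 was at 61.4 CPM (50.2 to 74.4) in cells with a UMI and 41.9 CPM (37.1 to 47.1) in cells without. Ptgs2 was at 614 CPM (578 to 653) and 999.7 CPM (976 to 1024), so it was lower in the cells with an Hpgd UMI. The untreated library did not show this, with Ptgs2 at 448 CPM (367 to 541) in the 16 cells with a UMI and 449 CPM (421 to 478) in the 180 without. Ptges was at 102 CPM (87.8 to 119) and 133 CPM (124 to 142). With MSA-2, Col1a1 was at 7906 and 8243 CPM and the fibroblast receptor Pdgfra at 118 CPM (102 to 136) and 114 CPM (106 to 122). The median depths were 14715 and 13207.5 UMIs. The tumor-class marker Gng11 was also lower in the cells with an Hpgd UMI, at 502 CPM (469 to 537) and 603 CPM (585 to 622). Untreated, it was at 163 CPM (116 to 223) and 385 CPM (359 to 411). Its part in the Ptgs2 difference was not tested.

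Counted by class with 1 CPM added, the genes that passed a 2-fold change were as follows. In fibroblasts Ptgs2 and Hpgd were higher, 2 of 5 tested where 6.58% of 11991 genes were, and Ptger4 was lower, 1 of 5 where 6.62% were. In Ly6c2 monocytes Ptgs2, Ptges and Ptger2 were higher, 3 of 5 where 10.4% of 9434 genes were, and 0 were lower, where 10.0% were. Both directions occurred in macrophages. Ptges and Ptger2 were higher there, 2 of 7 where 5.58% of 13191 genes were, and Ptgs1 and Hpgd were lower, 2 of 7 where 3.58% were. In T cells Ptges was higher, 1 of 5 where 5.22% of 9979 genes were, and 0 were lower, where 10.1% were. These counts rest on 0 to 3 genes each, a gene entered only with at least 20 UMIs, and the 7 genes were chosen with earlier results known, so nothing is read from their shares.

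Median log2 ratios, with 1 CPM added, are set beside those of all genes as a description. They rest on 5 tested genes in fibroblasts, monocytes and T cells and on 7 in macrophages and tumor cells. These genes were chosen with earlier results known, so nothing is read from the medians. The median was 0.90 in fibroblasts, where that of all genes was -0.16, and 1.002 in monocytes, where it was -0.25. In macrophages it was -0.60 against -0.11, and in tumor cells 0.19 against 0.04. T cells had 0.63 against -0.13. Scaling by trimmed means (TMM) in place of total UMIs moved the median of all genes up by 0.23 in fibroblasts and 0.29 in monocytes. Of the genes past 2-fold in fibroblasts, 49.8% were higher with total UMIs and 68.4% with TMM, and in monocytes 51.0% and 75.1%. No member changed sign under TMM, but in fibroblasts Ptges then passed a 2-fold change and Ptger4 no longer did, Hpgds passed it downward in tumor cells, and Ptger2 passed it in T cells.

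Beyond the 7 genes, 59 genes of prostanoid and leukotriene metabolism, their receptors and regulators of Ptgs2 were listed, of which 57 had a feature. In tumor cells 4 of 49 tested were at least 2-fold higher (2.71% of all genes) and 0 lower (1.62%), with a median log2 ratio of 0.09 where that of all genes was 0.04. The cytokines Il1a, Il6 and Tnf, listed as regulators of Ptgs2, were 3 of these 4. In macrophages 7 of 38 were higher (5.58% of all genes) and 3 lower (3.58%), with a median of -0.14 against -0.11. Fibroblasts had 5 of 41 higher (6.58%) and 4 lower (6.62%), with 0.06 against -0.16. The lists were chosen with earlier results known, so nothing is read from these shares and medians. In monocytes 4 of 33 were higher (10.4%) and 8 lower (10.0%), with -0.22 against -0.25, and in T cells 2 of 30 were higher (5.22%) and 2 lower (10.1%), with -0.11 against -0.13. No count is given for neutrophils, whose untreated side rests on 31 cells. Among the single lists, 3 of 6 other terminal synthases and 2 of 5 arachidonate-release genes were lower in monocytes, where 10.0% of all genes were. In fibroblasts 3 of 4 other prostanoid receptors were lower, where 6.62% of all genes were, and in macrophages 2 of 7 genes of the lipoxygenase branch were higher, where 5.58% were. These single lists were picked after their counts were seen.

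Single genes differed more. In tumor cells the carbonyl reductase Cbr1, which can convert prostaglandin E2, was at 5.34 CPM untreated and 20.9 CPM with MSA-2, a log2 ratio of 1.97 (1.86 to 2.09). The cytosolic phospholipase Pla2g4a, which releases arachidonic acid, was at 20.4 CPM untreated and 24.1 CPM with MSA-2, and the constitutive synthase Ptges3 at 428 CPM untreated and 400.1 CPM with MSA-2. In fibroblasts Slco2a1, which carries prostaglandins into cells for breakdown, was at 10.9 CPM untreated and 45.9 CPM with MSA-2, a log2 ratio of 2.07 (1.51 to 2.69), close to that of Hpgd. The receptor Ptger3 (EP3), which lowers cyclic AMP, was at 38.1 CPM untreated and 4.19 CPM with MSA-2, a log2 ratio of -3.18 (-3.79 to -2.61), and was 1 of 3 lower among the 4 other prostanoid receptors tested there, with Ptgfr at 8.51 CPM untreated and 2.76 CPM with MSA-2. The lipase Mgll was at 43.7 CPM untreated and 10.3 CPM with MSA-2, a log2 ratio of -2.09 (-2.51 to -1.66), and the prostacyclin synthase Ptgis at 119 CPM untreated and 128 CPM with MSA-2.

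In macrophages the leukotriene C4 synthase Ltc4s was at 13.8 CPM untreated and 79.7 CPM with MSA-2, a log2 ratio of 2.53 (2.31 to 2.75). The lipoprotein-associated phospholipase Pla2g7 was at 201 CPM untreated and 445 CPM with MSA-2, a log2 ratio of 1.15 (1.08 to 1.22), and the nuclear receptor Pparg at 28.6 CPM untreated and 7.64 CPM with MSA-2, a log2 ratio of -1.91 (-2.39 to -1.45). Of the other terminal synthases, 0 of 6 tested passed a 2-fold change in these cells, with the thromboxane synthase Tbxas1 at 252 CPM untreated and 193 CPM with MSA-2. In T cells the 2 lower genes were Tbxas1 and Prxl2b, at 6.47 and 5.18 CPM untreated and 0 UMIs each in the MSA-2 library. Since 0 UMIs there allow up to 5.14 CPM, a 2-fold difference of these genes was not detectable at this depth.

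Of the 12 genes known to act on Ptgs2 transcription or mRNA, 3 were at least 2-fold higher in tumor cells (2.71% of all genes), fibroblasts (6.58%), monocytes (10.4%) and macrophages (5.58%). Il1a, Il6 and Tnf, cytokines that are known to induce Ptgs2, made up the 3 in each of these classes. In T cells 2 of 10 tested were higher (5.22%), Il1b and Tnf. The summed neutrophil markers in T cells were at 51.3 CPM untreated and 494 CPM with MSA-2, and their part in these 2 differences was not tested. The other direction also occurred: Il1b was at least 2-fold lower in monocytes and macrophages, as was Cebpb in monocytes. Il6 in fibroblasts was at 189.5 CPM untreated and 825 CPM with MSA-2, a log2 ratio of 2.12 (1.99 to 2.26). In tumor cells it was at 5.81 CPM untreated and 22.5 CPM with MSA-2. Tnf in macrophages was at 325 CPM untreated and 929 CPM with MSA-2, a log2 ratio of 1.52 (1.46 to 1.57), whereas Il1b there was at 2343 CPM untreated and 684 CPM with MSA-2, a log2 ratio of -1.78 (-1.82 to -1.73). Whether these levels bear on Ptgs2 was not tested.

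**Figure D5:**
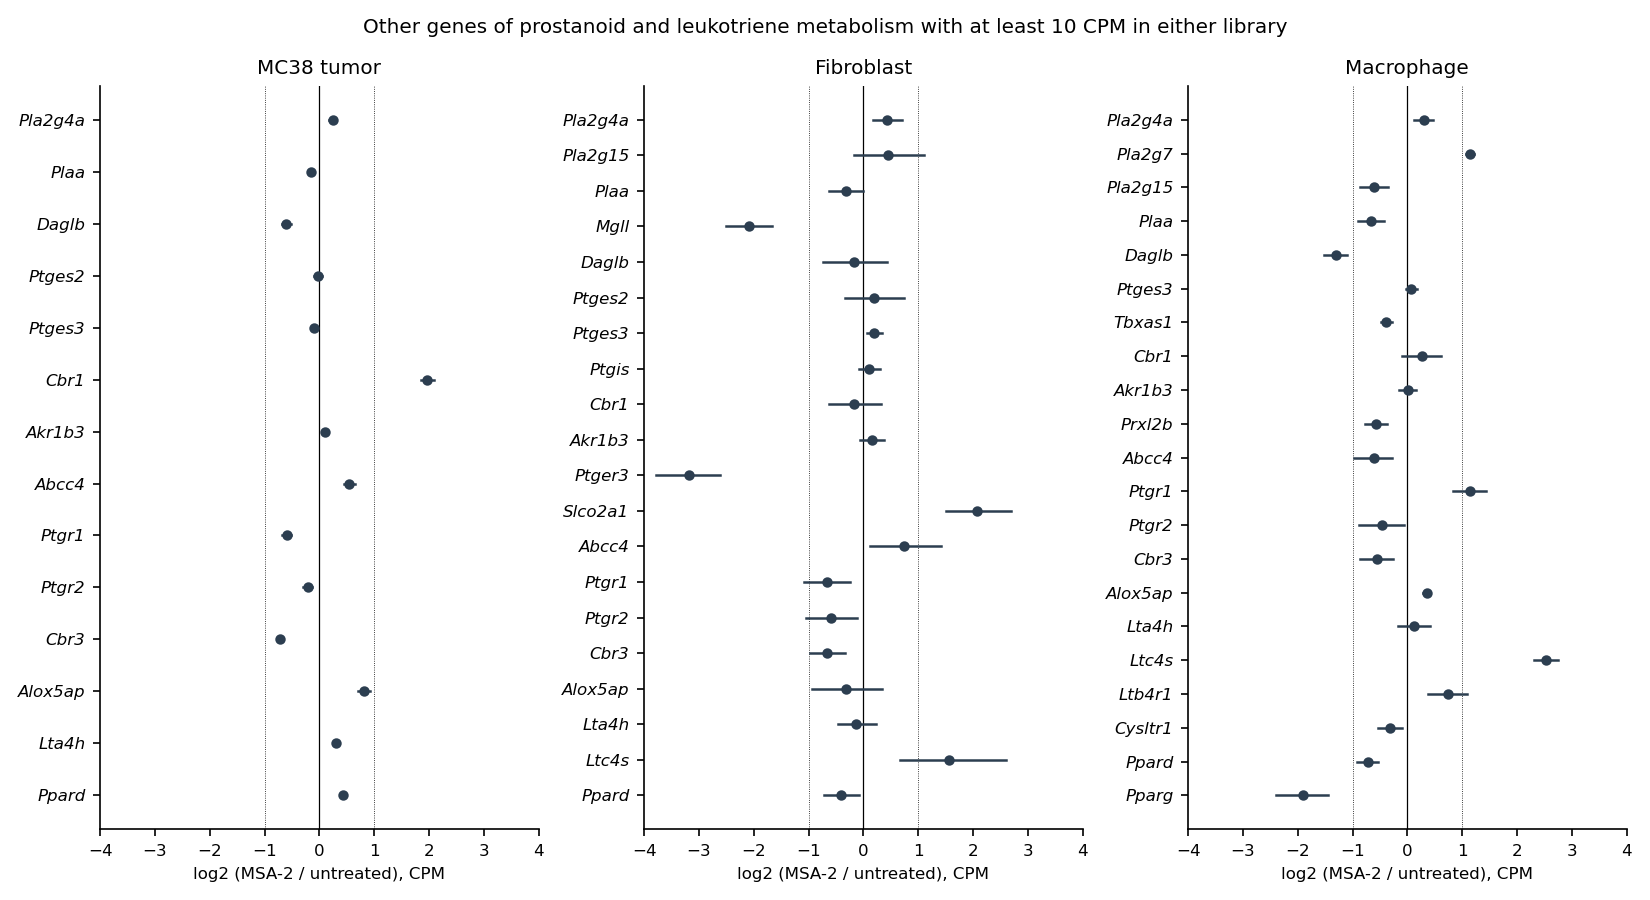
Points give the log2 ratio of the MSA-2 to the untreated library, with 95% intervals, for the other listed genes of prostanoid and leukotriene metabolism with at least 10 CPM in either library, in tumor cells, fibroblasts and macrophages; dotted lines mark a 2-fold change. Most genes lie between the dotted lines, with Cbr1 in tumor cells, Slco2a1 in fibroblasts and Ltc4s in macrophages to the right of them.

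Genes whose pattern was most like each member were found by Pearson correlation of log2 CPM, with 10 CPM added, over 16 class-by-library sums and 6555 genes. The sums share 2 libraries and differ in depth, so the correlations are descriptions. For Ptgs2 they were Tnfaip2 (r = 0.90), Hk2 (0.89) and F3 (0.89), and for Ptges Cxcl1 (0.94), Vcan (0.93) and Gm17268 (0.92). For Ptgs1 they were Itga9 (0.91), Gna12 (0.84) and Slc25a25 (0.82), and for Hpgds Fcrls (0.98), C1qa (0.94) and Ms4a7 (0.94). For Ptger4 they were Otulinl (0.96), Ero1lb (0.96) and Ncoa3 (0.96), for Ptger2 Ifi214 (0.95), Phf21a (0.93) and F730043M19Rik (0.92), and for Hpgd Cyp7b1 (0.94), Saa1 (0.93) and Parm1 (0.93). Among pairs of members, the 4 highest were Ptgs2 and Ptges (r = 0.79), Ptger4 and Hpgds (0.61), Ptgs2 and Hpgd (0.601) and Ptger2 and Ptger4 (0.57), and the lowest was Ptges and Ptger4 (-0.48).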

How the data were processed

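The authors deposited filtered UMI counts per gene and barcode for each library, as whole numbers that were not normalized; the submitters' processing notes name Cell Ranger 7.0.0, Seurat 4.3.0 and mm10. A barcode was kept if it had 500 or more genes and no more than 20% of its UMIs from mitochondrial genes (347 untreated and 654 MSA-2 barcodes were removed), and Scrublet (scanpy 1.11.5) called doublets, with the expected rate set to 0.8% per 1000 barcodes (734 and 570 removed; 5.23% and 4.08%). Each cell was scored by the mean of its capped log marker levels and assigned to the class whose gate it passed: 0.3 for most immune classes, 0.35 for NK cells, 0.45 for mast cells, B or plasma cells, fibroblasts and endothelial cells, 0.5 for pericytes, and 0.1 for tumor cells with a leukocyte score under 0.15. Cells that passed gates of more than 1 of 6 lineages were set apart. UMIs were summed per class and library and scaled to total UMIs.

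With 1 library per condition no test was made and no p-value is given. Intervals are exact Poisson for levels, Clopper-Pearson for shares and conditional binomial for ratios, at 95%. For shares, cells were thinned to 1000 UMIs, leaving out 232 untreated and 300 MSA-2 cells below that. Pathway genes were named where they had at least 20 UMIs in the class, and genes most like a member were the 3 with the highest correlation. The members and lists were chosen with earlier results of these data known; the marker pairs of sub-gates, the comparison genes for free RNA (Gng11, Dcn, the C1q genes and the collagen genes), the motifs and the split of fibroblasts by Hpgd were chosen after values were seen. Pla2g2a and Ptgr3 have no feature. Some of the sub-gates are not reported here. Alternatives were other cell filters, doublets kept, TMM scaling (edgeR 4.0.16 in R 4.3.3), equal weight per cell, thinning, a stricter gate, another pseudocount and other minimum counts. The calculations were tested on simulated data. Python 3.11.15, numpy 2.4.6, scipy 1.17.1, pandas 2.3.3 and matplotlib 3.10.9 were used. Gene coordinates are those of mm10 (GENCODE M21).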

Additional observations from a re-analysis of the deposited data

Results flagged for a closer look

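For Ptgs2 and Hpgd the ratio between libraries had opposite signs in different cell classes. The log2 ratio of Ptgs2 was 1.04 in fibroblasts and -0.88 in neutrophils, where the untreated value rests on 31 cells. The log2 ratio of Hpgd was 2.92 in tumor cells, from 9 UMIs untreated, and -1.999 in macrophages, from 3 UMIs with MSA-2. The difference was not tested in either case, since each class in each condition comes from 1 library.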

How the results depend on the processing

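Of the ratios over all cells, 28 of 42 alternative values stayed within the counting interval of the reported value, as did 41 of 49 ratios in the leading class, 10 of 14 levels and 0 of 14 shares, and 29 of 48 counts of genes stayed within 1.5 times. None changed sign.

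With equal weight per cell, the log2 ratio over all cells was -2.54 for Ptgs1, 1.05 for Ptgs2, 1.79 for Ptges, 0.77 for Ptger2, -1.53 for Ptger4, 1.25 for Hpgd and -1.93 for Hpgds. With cells thinned to 1000 UMIs, which also weights cells equally, it was -2.73 for Ptgs1, 1.05 for Ptgs2, 1.86 for Ptges, 0.66 for Ptger2, -1.62 for Ptger4 and -1.89 for Hpgds. The stricter cell filter gave 0.55 for Ptgs2. The cause was not tested.

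Within the leading class, TMM scaling gave 0.26 for Ptgs2 and 1.48 for Ptges, thinning 0.37 for Ptgs2, 1.51 for Ptges and -0.57 for Ptger4, equal weight 1.49 for Ptges and -0.65 for Ptger4, and the stricter gate 0.24 for Ptgs2. The stricter gate moved the leading-class level of Ptgs2 to 249 CPM untreated and 295 CPM with MSA-2, that of Hpgd with MSA-2 to 54.9 CPM and that of Hpgds untreated to 149 CPM; the cause was not tested.

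Without thinning, more UMIs per cell gave larger shares in the leading class, untreated and MSA-2: 12.7% and 3.31% for Ptgs1, 78.5% and 85.6% for Ptgs2, 50.4% and 72.8% for Ptges, 3.63% and 7.23% for Ptger2, 41.7% and 24.0% for Ptger4, 8.16% and 19.2% for Hpgd, and 47.7% and 31.7% for Hpgds.

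With 10 CPM added, which shrinks the ratios of low genes, genes at least 2-fold higher and lower numbered 212 and 149 over all cells, 162 and 77 in tumor cells, 315 and 250 in fibroblasts, 565 and 350 in monocytes, 295 and 132 in macrophages, and 236 and 245 in T cells. TMM scaling gave 480 lower in fibroblasts and 456 in monocytes. A minimum of 5 UMIs gave 1489 higher in monocytes and 965 higher and 1823 lower in T cells, and a minimum of 50 UMIs, with fewer genes tested, gave 309 and 606 in T cells.

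No paired analysis was possible because each condition had 1 library. Depth limits Ptger2, Hpgd, Ptgs1 and Hpgds, which had fewer than 20 UMIs in several classes. The 31 untreated neutrophils held 1 UMI or none of every member except Ptgs2. The counting intervals leave out the spread between tumors, between mice and between preparations. Classes set by marker gates can differ in content between the libraries.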
